A study of Mus musculus with 18 samples.

Results

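Rhbdl3, 1110032F04Rik, Krt222, Smagp, Nid1 and Snx29 are 6 of the 23420 genes listed in RNA-seq data of mouse splenic B cells cultured for 4 h with or without an agonist of an endosomal Toll-like receptor (TLR). The genes were picked by symbol because earlier results of these data had shown a large change with an agonist or a difference between genotypes. Their own differences are therefore given throughout as a description, without a test. Their working name was near-silent genes that a TLR agonist switches on, and the values bore this out for a minority of them. Taking a group mean under 0 log2 CPM (CPM is the count of a gene per total counts of the library, on a scale common to all genes) as near-silent, 1110032F04Rik was near-silent in all 3 unstimulated groups and Rhbdl3 in 2 of 3. Krt222 was so in 1 group, through 1 library, Smagp, Nid1 and Snx29 were so in none, and Snx29 was lower with the agonist.

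All 18 libraries came from MRL/lpr mice, a strain that carries the lpr mutation of Fas and develops lupus. In the first arm all mice were female, aged 5 to 7 weeks by the labels (5 weeks by the methods) and Tlr7-/-, and carried either Tlr997, a TLR9 whose signaling (TIR) domain was exchanged for the one of TLR7, or Tlr9+/-. Their B cells were left unstimulated or given the TLR9 agonist CpG DNA at 10 µg/ml. In the second arm all mice were male, aged 5 to 7 weeks and Tlr9-/-, and carried Tlr779, a TLR7 with the TIR domain of TLR9. Their B cells were left unstimulated or given the TLR7 agonist CL097 at 5 µg/ml. Each of the 6 groups had 3 libraries, from 3 mice per genotype by the submitters' protocol. The sample titles, the design text and the results text of the study name the control of the first arm Tlr9+/-. The treatment protocol and the methods instead name it Tlr9-/- Tlr7-/-. It is called Tlr9+/- here. Libraries of Tlr7WT cells were not analysed here and Tlr779 therefore had no control genotype, and receptor, agonist and sex cannot be told apart between the arms. Both chimeras were knocked into MRL/lpr with CRISPR/Cas9, and the B cells were enriched by depletion of cells carrying CD43, CD4, CD8, CD11b, CD11c or Gr-1.

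The targeted genes gave an incomplete check of the labels, because gene-level values do not separate a chimeric or interrupted transcript from a normal one. Tlr7 lay between 2.68 and 5.36 log2 CPM in the Tlr7-/- libraries and between 6.61 and 7.82 in the Tlr779 libraries, and Tlr9 lay between 6.93 and 8.08 in all libraries, those labelled Tlr9-/- included. Within the first arm Tlr7 separated the genotypes. It was at 4.81 to 5.18 in unstimulated Tlr997 cells and 2.68 to 3.48 in unstimulated Tlr9+/- cells. With CpG it was at 5.33 to 5.36 and 4.11 to 4.28. Tlr997 carries the TIR sequence of Tlr7, whose part in these values was not tested. The summed level of 9 B cell markers ran from 2160 to 8290 CPM and that of 9 T cell markers from 3.40 to 29.9 CPM. Replicate 3 of unstimulated Tlr997 cells stood apart, with a correlation of 0.947 with another library of its group across 11494 genes, against at least 0.978 in the other groups. Results that rest on it are given with and without it.

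TLR7 and TLR9 sit in endosomes, bind RNA and DNA respectively, and signal through the adaptor MyD88 to NF-κB, MAP kinases and interferon regulatory factors, which in B cells induces transcripts for cytokines, chemokines and regulators of growth within hours. The 6 genes belong to no single pathway. Rhbdl3 encodes a rhomboid-like membrane protein, and Nid1 encodes nidogen-1 (entactin), a glycoprotein of basement membranes that links laminin to collagen IV. Snx29 encodes a sorting nexin, a class of proteins that bind membrane lipids and sort endosomal cargo. Krt222 encodes a keratin-like protein, Smagp a small glycosylated transmembrane protein found at the surface of epithelial cells, and 1110032F04Rik a protein without an assigned function.

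The genes lie on 5 chromosomes of the mouse assembly GRCm38, by RefSeq annotation. Rhbdl3 is at chr11:80300471-80355986 (plus strand) and Krt222 at chr11:99232761-99244147 (minus strand). 1110032F04Rik is at chr3:68869586-68872163 (plus strand) and Nid1 at chr13:13437602-13512275 (plus strand). Smagp is at chr15:100621339-100636940 (minus strand) and Snx29 at chr16:11322861-11759095 (plus strand). The RefSeq promoter table (GRCm38.p6) held 5 entries for 3 of the 6 genes, Nid1, Smagp and Snx29, and its 250 bases before each start were searched on both strands for the letters of motifs bound by factors downstream of TLRs. Rhbdl3, 1110032F04Rik and Krt222 had no entry. The motif letters were those of NF-kB (GGG and TTTCC with any 2 bases between them), AP-1 (TGANTCA, where N is any base), ISRE (GAAA and GAAA with any 2 bases between them), a composite Ets-IRF element (GGAA and GAAA with any 2 bases between them), CRE (TGACGTCA) and a TATA box (TATAAA). Of all 32851 promoters in the table, 1.41% held the NF-kB letters, 6.75% AP-1, 2.98% ISRE, 2.30% Ets-IRF, 1.55% CRE and 12.4% TATA. One sequence is shown for each of the 3 genes, since these are genes whose level with CpG differed between genotypes, in lower case, 5′ to 3′ on the gene's strand, with motif letters in capitals. For Smagp and Snx29, which have 2 starts each, it is the start with a match.
Nid1: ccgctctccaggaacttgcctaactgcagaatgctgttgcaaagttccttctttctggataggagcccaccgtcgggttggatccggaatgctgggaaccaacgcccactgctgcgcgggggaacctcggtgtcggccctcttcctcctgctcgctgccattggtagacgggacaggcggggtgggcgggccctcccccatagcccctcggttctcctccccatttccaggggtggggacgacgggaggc
Smagp: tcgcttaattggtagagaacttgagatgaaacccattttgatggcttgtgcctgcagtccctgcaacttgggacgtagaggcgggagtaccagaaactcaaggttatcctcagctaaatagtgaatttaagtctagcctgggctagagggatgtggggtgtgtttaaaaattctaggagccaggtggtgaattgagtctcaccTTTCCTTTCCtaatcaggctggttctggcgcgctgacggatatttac
Snx29: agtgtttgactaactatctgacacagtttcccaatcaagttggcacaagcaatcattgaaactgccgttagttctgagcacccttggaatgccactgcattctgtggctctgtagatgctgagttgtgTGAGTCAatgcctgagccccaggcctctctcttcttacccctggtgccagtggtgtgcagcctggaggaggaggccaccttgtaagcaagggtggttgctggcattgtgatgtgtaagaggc
These windows are chr13:13437352-13437601 (plus strand), chr15:100635560-100635809 (minus strand) and chr16:11405398-11405647 (plus strand). The capitals mark the Ets-IRF letters, read on the opposite strand, from base -47 of the inner Smagp start and the AP-1 letters from base -122 of the inner Snx29 start. The Smagp and Snx29 windows shown held a single match each. None of the 6 sets of letters was found in the window of Nid1 or before the outer starts of Smagp and Snx29, which says only that these letters are not in these windows. The window of Nid1 was 64.4% G and C with 16 CG pairs, that of the inner Smagp start 47.2% with 6 and that of the inner Snx29 start 51.6% with 1. The gene-level values do not show which start was used.

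Rhbdl3 had the largest genotype difference in CpG response of the 6 genes. In Tlr9+/- cells its level was -0.60, -0.09 and -1.37 log2 CPM unstimulated and 6.92, 7.31 and 7.25 with CpG (replicates 1, 2 and 3). In Tlr997 cells it was 0.28, 0.13 and 0.75 unstimulated and 5.35, 5.72 and 5.50 with CpG. The ranges did not overlap within either genotype, and every Tlr9+/- library lay above every Tlr997 library with CpG. Without CpG the order was the opposite, with the highest Tlr9+/- library 0.22 log2 units under the lowest Tlr997 library. The difference between CpG and unstimulated means was 7.85 in Tlr9+/- and 5.13 in Tlr997, and the second minus the first was -2.71. In Tlr779 cells the level of Rhbdl3 was -0.11, -2.47 and -1.96 unstimulated and 4.95, 5.68 and 5.19 with CL097. The difference was 6.78 (SE 0.56), with the ranges 5.06 apart. This SE and those of the other genes are from limma, which borrows spread from all genes tested, and do not follow from the SDs shown. In the order of group means, Tlr9+/- with CpG at 7.16 ± 0.21 (SD, n = 3) stood alone at the top. Tlr997 with CpG at 5.52 ± 0.18 and Tlr779 with CL097 at 5.27 ± 0.37 overlapped.

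1110032F04Rik was the gene closest to the working name. In Tlr9+/- cells its level was -1.18, -1.10 and -1.55 log2 CPM unstimulated and 4.83, 5.40 and 5.52 with CpG. In Tlr997 cells it was -1.53, -0.45 and -1.15 unstimulated and 5.01, 5.80 and 5.72 with CpG. The CpG libraries of the 2 genotypes overlapped, and so did their unstimulated libraries. The CpG response was 6.53 in Tlr9+/- (92.3-fold) and 6.56 in Tlr997 (94.2-fold), a difference of 0.03 between genotypes. In Tlr779 cells the level was -1.05, -0.37 and -1.75 unstimulated and 3.82, 3.71 and 3.34 with CL097. The difference was 4.68 (SE 0.37), and all CL097 libraries lay under all CpG libraries. Of the 12245 genes that were near-silent in all 3 unstimulated groups, 32 had a group mean over 2 log2 CPM with CpG in Tlr9+/-, 20 with CpG in Tlr997 and 12 with CL097 in Tlr779, and 1110032F04Rik was among them each time. Over 4 log2 CPM there were 3 such genes in Tlr9+/- and 1 in Tlr997, which was 1110032F04Rik.

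Krt222 was detected without stimulation in all libraries but 1. In Tlr9+/- cells its level was 1.38, 0.91 and 1.67 log2 CPM unstimulated and 4.25, 4.54 and 4.91 with CpG. In Tlr997 cells it was 0.09, 1.06 and -4.62 unstimulated and 3.89, 4.03 and 4.64 with CpG. Replicate 3 of unstimulated Tlr997 cells, the library that stood apart, was at -4.62, below the level of -3.47 that 1 count takes on this scale. With that library the CpG response in Tlr997 was 5.35, against 3.25 in Tlr9+/-. Without it the response in Tlr997 was 3.62, the difference of the responses went from 2.10 to 0.37, and the unstimulated genotype difference went from -2.48 to -0.75. The CpG libraries of the genotypes overlapped. In Tlr779 cells the level was 0.81, 1.22 and 1.63 unstimulated and 3.52, 3.95 and 4.15 with CL097. The difference was 2.65 (SE 0.26), and the differences between libraries of the same number were 2.70, 2.72 and 2.52. For the other 5 genes, leaving out the library that stood apart moved the CpG response in Tlr997 by at most 0.19 log2 units.

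Smagp was expressed in every unstimulated library and was higher with each agonist. In Tlr9+/- cells its level was 2.11, 2.57 and 2.96 log2 CPM unstimulated and 4.91, 4.97 and 5.41 with CpG. In Tlr997 cells it was 2.58, 3.07 and 2.89 unstimulated and 3.68, 3.89 and 3.64 with CpG. The unstimulated libraries of the genotypes overlapped, whereas with CpG the lowest Tlr9+/- library was 1.01 above the highest Tlr997 library. The CpG response was 2.55 in Tlr9+/- and 0.89 in Tlr997, and the second minus the first was -1.66. In Tlr779 cells the level was 2.57, 2.73 and 1.66 unstimulated and 4.10, 4.03 and 4.02 with CL097. The difference was 1.73 (SE 0.27), and the CL097 mean of 4.05 ± 0.05 (SD, n = 3) lay between the Tlr9+/- and Tlr997 means with CpG, apart from both.

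Nid1 was the only gene of the 6 that was higher in Tlr997 than in Tlr9+/- with CpG without overlap of the ranges. In Tlr9+/- cells its level was 3.72, 3.80 and 3.28 log2 CPM unstimulated and 4.38, 4.38 and 4.45 with CpG. In Tlr997 cells it was 3.45, 3.85 and 3.08 unstimulated and 5.41, 5.53 and 5.57 with CpG. All CpG libraries of Tlr997 lay above all those of Tlr9+/-, by at least 0.96, and the unstimulated libraries overlapped. The CpG response was 0.80 in Tlr9+/- and 2.04 in Tlr997, a difference of 1.24, or 1.05 without the library that stood apart. In Tlr779 cells the level was 4.28, 3.52 and 4.27 unstimulated and 4.58, 4.81 and 4.74 with CL097. The difference was 0.69 (SE 0.21), the smallest CL097 difference of the 6 genes, with the ranges 0.30 apart. It was 0.44 without replicate 2 of the unstimulated libraries.

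Snx29 was lower with each agonist. In Tlr9+/- cells its level was 6.61, 6.17 and 6.83 log2 CPM unstimulated and 3.41, 3.81 and 4.30 with CpG. In Tlr997 cells it was 6.33, 5.72 and 5.65 unstimulated and 2.81, 2.09 and 2.35 with CpG. The CpG libraries of Tlr997 all lay under those of Tlr9+/-, by at least 0.60, while the unstimulated libraries overlapped. The CpG response was -2.70 in Tlr9+/- and -3.48 in Tlr997, a difference of -0.79. In Tlr779 cells the level was 5.83, 6.13 and 6.38 unstimulated and 4.68, 4.75 and 5.45 with CL097. The difference was -1.15 (SE 0.22), with the ranges 0.38 apart. In bulk RNA, a change in the number of cells that express a gene and a change in RNA per cell cannot be told apart.

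**Figure D1:**
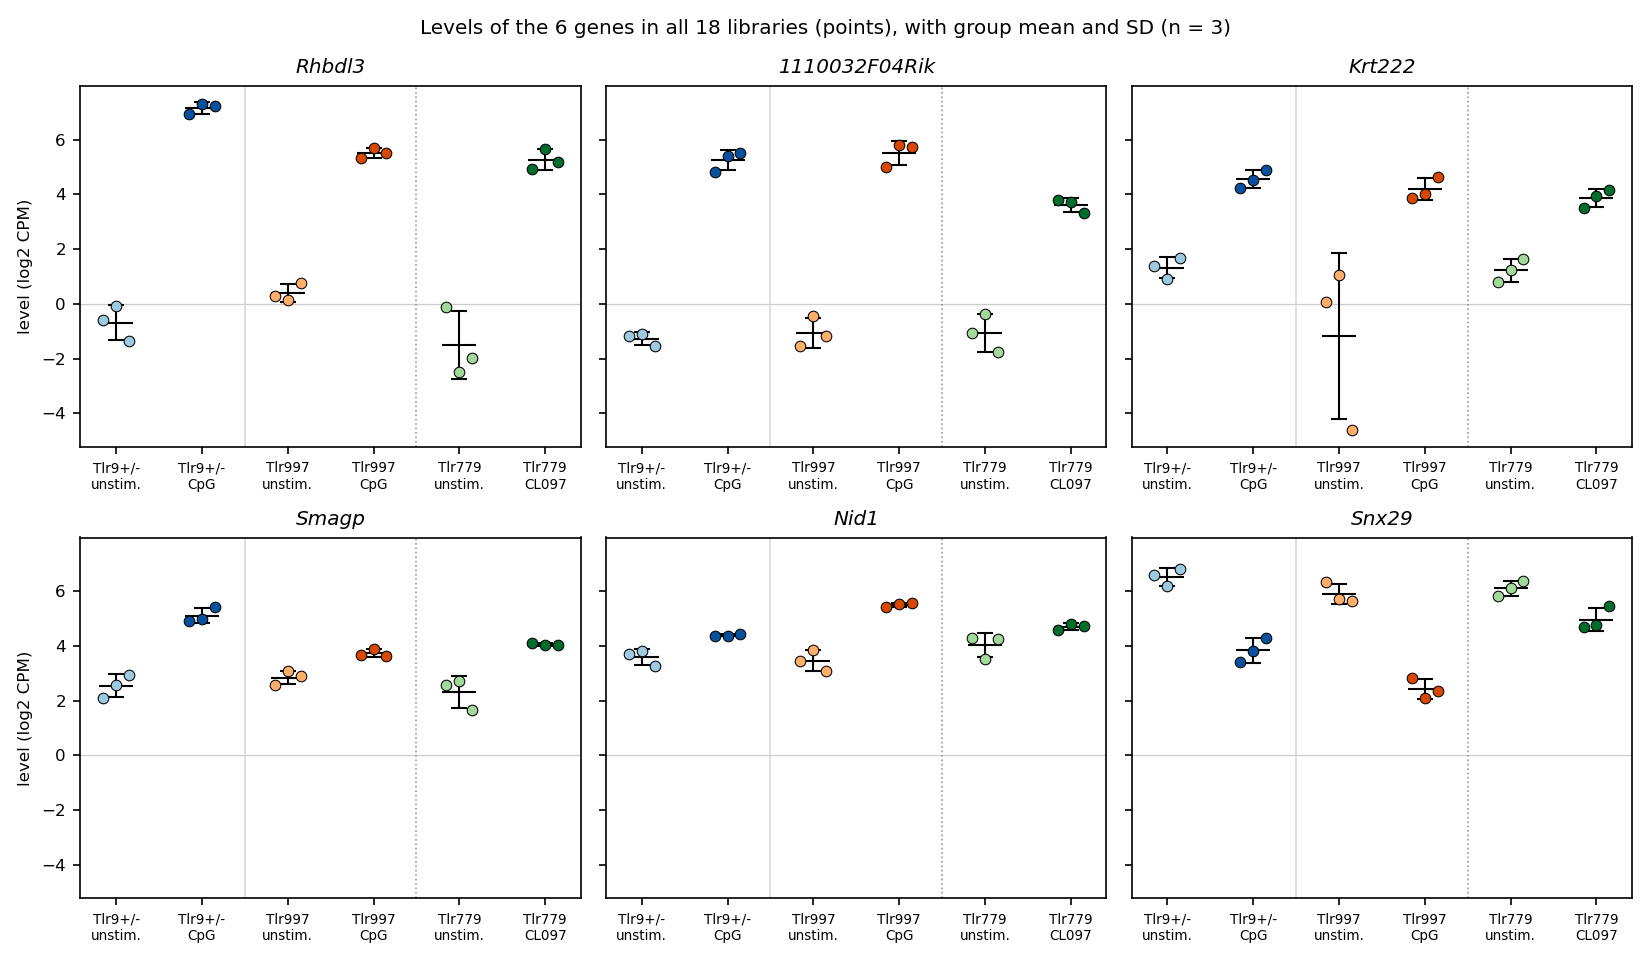
Level of each gene in log2 CPM (y axis) in the 6 groups (x axis). Points are the 3 libraries in the order of their replicate numbers, the long mark is the group mean and the bar the SD. The agonist groups do not overlap their unstimulated groups in any panel, Snx29 is the gene that is lower with agonist, and 1 unstimulated Tlr997 library of Krt222 lies at -4.62.

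The limma fits across all genes place the 6 among the rest. All 6 passed the filter on low values (at least 3 libraries over 0 log2 CPM). With CL097, Rhbdl3 and 1110032F04Rik passed only through the 3 CL097 libraries, since their unstimulated Tlr779 libraries were all under 0. In the first arm 1110032F04Rik likewise passed only through the CpG libraries, since its unstimulated libraries of both genotypes were all under 0. Because the genes were picked for their changes, the counts and medians describe them and support nothing. With CL097, 5 of the 6 were higher and 1 lower past the thresholds (adjusted p under 0.05 and a log2 difference over 0.5 in size), where 22.7% of the 11082 genes tested were called higher and 23.6% lower (46.3% in either direction). The median CL097 difference of the 6 was 2.19, against -0.02 over all genes tested. With CpG in Tlr9+/-, 5 were higher and 1 lower past the same thresholds (29.7% and 28.2% of 11494 genes, 57.8% in either direction), with a median difference of 2.90 against 0.04 over all genes tested. With CpG in Tlr997, 5 were higher and 1 lower (29.6% and 26% of all genes, 55.6% in either direction), with a median of 3.59 against 0.07. Between genotypes with CpG, Nid1 was higher in Tlr997 (1.10) and Rhbdl3 (-1.64), Snx29 (-1.42) and Smagp (-1.36) were lower, where 1.25% of genes were higher and 1.47% lower. Without stimulation 0.0174% of genes were called between genotypes by limma, 2 in all and none of the 6, and 1237 genes had an unadjusted p under 0.05. In the difference of the CpG responses, 0.687% of genes were called higher, Nid1 among them, and 0.861% lower, Rhbdl3 and Smagp among them.

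**Figure D2:**
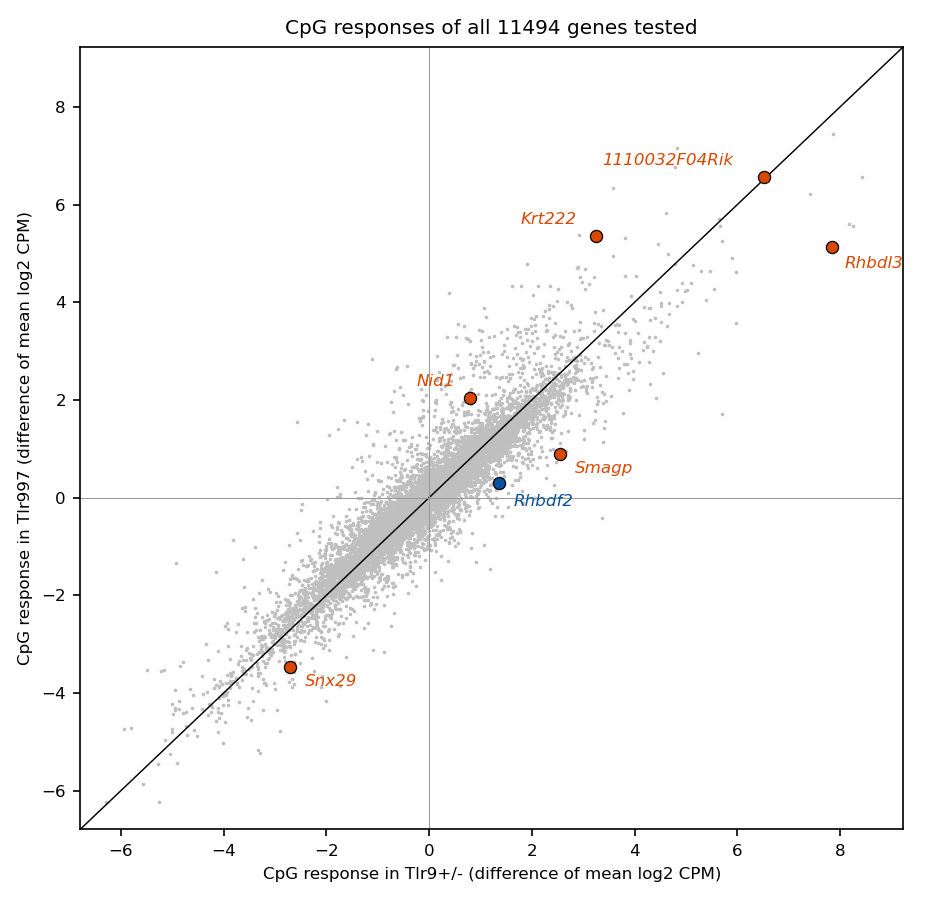
Difference between CpG and unstimulated means in log2 CPM, in Tlr9+/- (x axis) and Tlr997 (y axis), for the 11494 genes tested (grey), the 6 genes (orange) and the rhomboid-family gene Rhbdf2 (blue). The diagonal is an equal response. 1110032F04Rik lies on it (6.53 and 6.56), Rhbdl3, Smagp and Rhbdf2 lie under it, and Nid1 lies above it (0.80 and 2.04).

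Markers of other cell types, and of B cells themselves, moved with the agonists. For Nid1, a gene of stromal and endothelial basement membranes, the summed level of 9 stromal markers was 4.08 to 7.2 CPM in unstimulated Tlr997 cells and 1.92 to 3.03 with CpG, in Tlr9+/- 2.96 to 4.56 and 1.70 to 2.88, and in Tlr779 1.98 to 4.06 and 0.412 to 0.840 with CL097. Of the 9 markers, 1 to 3 were under -4 log2 CPM in every library of a group, and 1 passed the filter. The 8 endothelial markers summed to 255 to 291 CPM in unstimulated Tlr997 cells and 207 to 245 with CpG, to 267 to 288 and 212 to 226 in Tlr9+/-, and to 263 to 294 and 231 to 283 with CL097 in Tlr779, where the ranges overlapped. Single endothelial markers moved otherwise. With CpG in Tlr997, 2 of 5 tested were higher, Kdr (3.68) and Cdh5 (1.42), with a median difference of 1.27 over the 5. In Tlr9+/- Kdr was higher (2.33), with a median of 0.47. Of all genes, 29.6% were called higher with CpG in Tlr997 and 29.7% in Tlr9+/-. The part of stromal and endothelial cells in the Nid1 values was not tested. Beside the genotype differences with CpG, the summed B cell markers were 2160 to 2280 CPM in Tlr9+/- and 3270 to 4000 in Tlr997. By limma 4 of the 9 were higher in Tlr997, where 1.25% of all genes were called higher. Among the 4 were Ms4a1, which encodes CD20 (1.26, adjusted p = 7.9e-07), and Cd79b of the B cell receptor (1.04, adjusted p = 0.0022). The part of these markers in the genotype differences of Rhbdl3, Smagp, Nid1 and Snx29 was not tested.

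The genes next to the 6 on the chromosome were called about as often as genes at large. The nearest 2 listed genes on each side gave 24 neighbours, of which 15 were tested with CL097 and 16 with CpG. With CL097, 3 neighbours rose and 4 fell by limma, beside 22.7% and 23.6% of all genes. With CpG, 3 rose and 6 fell in Tlr9+/- (29.7% and 28.2% of all genes), and 5 rose and 5 fell in Tlr997 (29.6% and 26%). Next to Rhbdl3, 5730455P16Rik (4.5 kb away) differed by -0.18 with CL097 (adjusted p = 0.28), and Rhot1, which encodes a mitochondrial GTPase (32.6 kb away), rose by 0.57 with CL097, 0.72 with CpG in Tlr9+/- and 0.73 in Tlr997. Next to 1110032F04Rik, Ift80, a gene of ciliary transport (20.3 kb away), differed by -1.14 with CL097, -1.98 with CpG in Tlr9+/- and -1.77 in Tlr997, all called lower.

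Krt222 lies 1.7 kb from Smarce1, which encodes a subunit of SWI/SNF chromatin remodelers and differed by 0.29 with CL097 and 0.42 with CpG in Tlr9+/-, under the fold threshold. On the same side, 77.7 kb away, the chemokine receptor gene Ccr7 rose by 1.63 with CL097, 1.27 with CpG in Tlr9+/- and 1.16 in Tlr997. The keratin genes on the other side, Krt24 and Krt25, were below the filter. Beside Smagp, Dazap2, 0.6 kb away on the opposite strand, fell by 0.65 (adjusted p = 0.00017), and Bin2, 4.1 kb away, fell by 0.52 (adjusted p = 0.0015). Beside Nid1, Gpr137b fell by 1.70 with CL097 and Gng4, a G protein gamma subunit gene, rose by 1.92. Tnfrsf17, which encodes the plasma cell receptor BCMA and lies 2.8 kb from Snx29, was below the filter, and Cpped1 on the other side differed by -0.51 with CL097 (adjusted p = 0.067).

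Between genotypes with CpG, 1 neighbour was higher and 1 lower in Tlr997, where 1.25% and 1.47% of all genes were called. Lyst, which encodes a regulator of lysosomal trafficking and lies 78.0 kb from Nid1, was at 6.92, 6.92 and 6.85 log2 CPM in Tlr9+/- and at 7.68, 7.23 and 7.78 in Tlr997. It was higher by 0.67 (adjusted p = 0.014 by limma), and this call was kept in 12 of 18 alternative settings. Il12a, the p35 subunit gene of IL-12 (171.0 kb from 1110032F04Rik), was lower by 0.53 (adjusted p = 0.029), also in 12 of 18 settings. A fold threshold of 1 was not among these settings, and both differences lie under it. In the difference of the CpG responses none of the 16 tested neighbours was called by limma, and 3 had an unadjusted p under 0.05. Lyst had a difference of 0.71 (adjusted p = 0.094) there and was called in 4 of 18 settings.

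**Figure D3:**
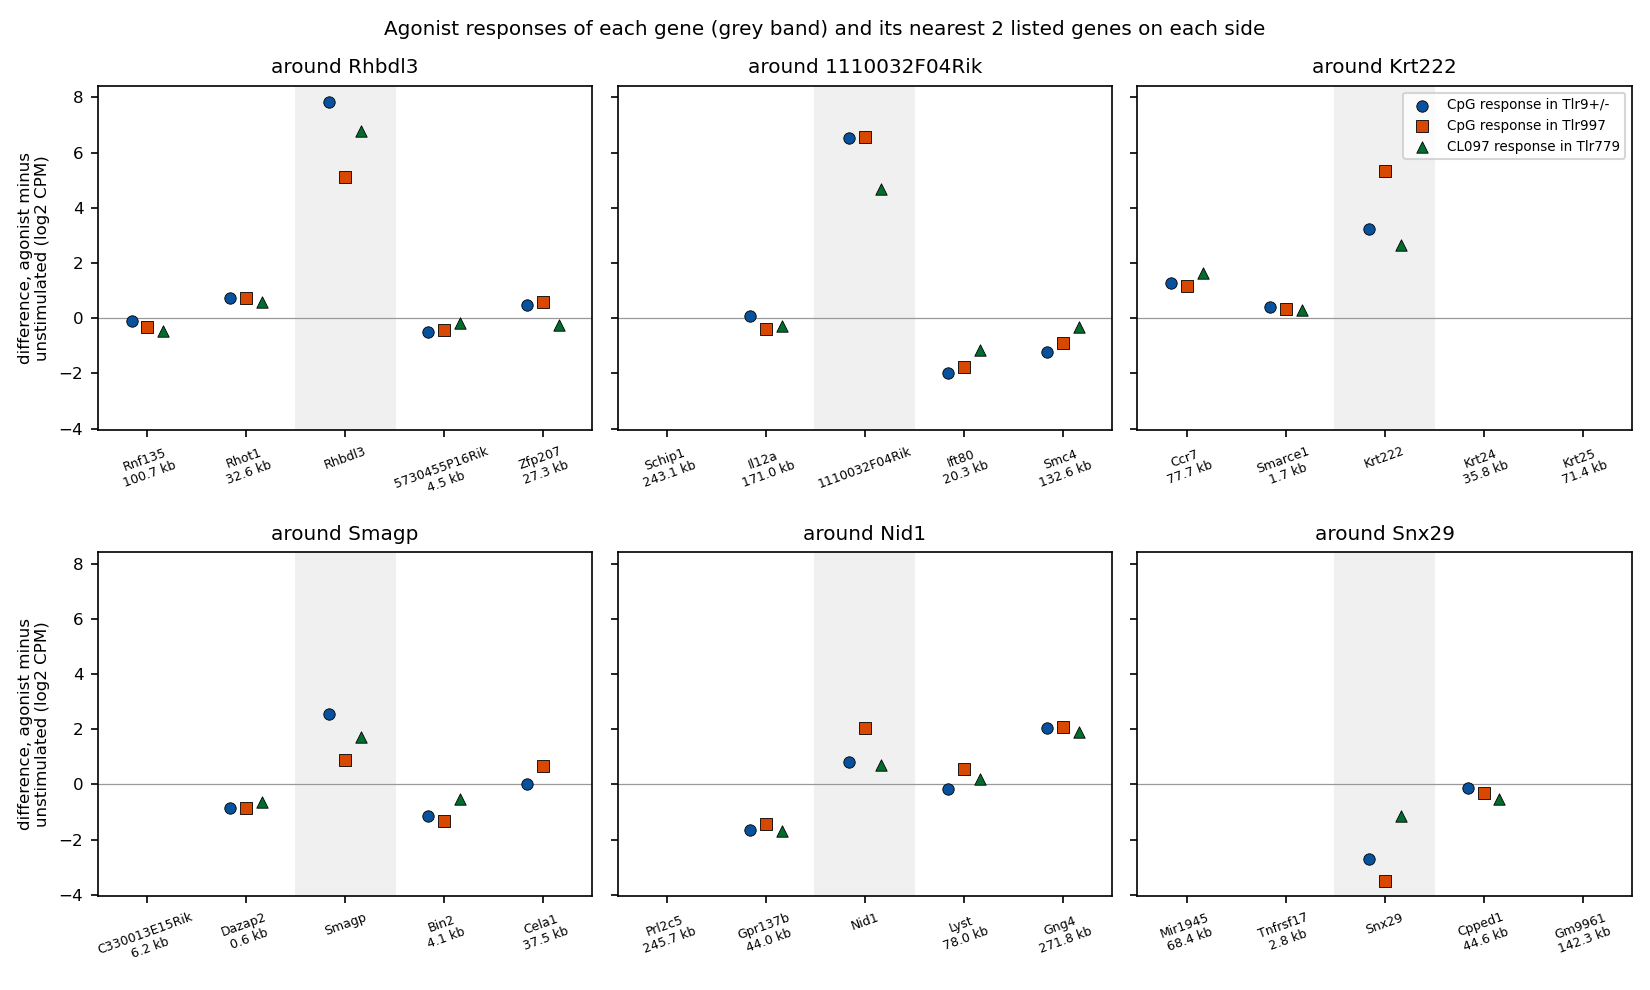
Difference between agonist and unstimulated means in log2 CPM (y axis) of each gene (grey band) and of its tested neighbours (x axis, in chromosomal order with the distance in kb). Circles are CpG in Tlr9+/-, squares CpG in Tlr997 and triangles CL097 in Tlr779; neighbours below the filter have no symbol. Rhbdl3 stands at 7.85, 5.13 and 6.78, and its highest neighbour value is 0.73 (Rhot1, CpG in Tlr997).

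Relatives of the 6 genes by family were tested in all comparisons. Of 8 other rhomboid-family genes, 7 were tested with CL097 and 4 rose, where 22.7% of all genes rose. With CpG in Tlr9+/-, 5 of 6 rose (29.7% of all genes) and Rhbdf1 fell by 1.14, and in Tlr997 4 of 6 rose (29.6% of all genes). Parl, the mitochondrial rhomboid protease, rose by 0.77 with CL097, 1.39 with CpG in Tlr9+/- and 1.07 in Tlr997. Rhbdf2 encodes iRhom2, a rhomboid pseudoprotease that carries the sheddase TACE to the cell surface, where it releases TNF. With CpG it was at 7.21, 7.09 and 7.23 log2 CPM in Tlr9+/- and at 6.02, 6.05 and 5.91 in Tlr997. Its difference between genotypes was -1.18 (adjusted p = 8.1e-06 by limma), and its CpG responses, 1.36 in Tlr9+/- and 0.30 in Tlr997, differed by -1.06 (adjusted p = 0.0011), a call kept in all 18 alternative settings. With CL097 in Tlr779 Rhbdf2 rose by 1.00 (adjusted p = 0.00079).

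Of 29 sorting nexin genes other than Snx29, 26 were tested: 4 rose and 6 fell with CL097, 3 rose and 10 fell with CpG in Tlr9+/-, and 4 rose and 8 fell with CpG in Tlr997. The shares of all genes were 22.7% and 23.6% with CL097, 29.7% and 28.2% with CpG in Tlr9+/-, and 29.6% and 26% with CpG in Tlr997. Snx20 fell by 1.82 with CL097 and Snx30 fell by 1.37, and with CpG the fitted difference of Snx30 was -2.95 in Tlr9+/- and -2.67 in Tlr997. Snx21 moved the other way, rising by 2.19 with CL097 and 3.23 with CpG in Tlr9+/-. Between genotypes with CpG, Snx21 was lower in Tlr997 by 2.11 (adjusted p = 0.0067). The difference of its CpG responses, -1.65, was not called by limma (adjusted p = 0.16) and was called in 1 of 18 alternative settings. Its unstimulated means were low, at -0.06 log2 CPM in Tlr9+/- and -0.52 in Tlr997. Snx2, a component of the retromer-associated sorting complex, was higher by 0.63 (adjusted p = 0.00015), and its CpG responses differed by 0.63 (adjusted p = 0.004).

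Most relatives of Nid1 and Krt222 were below the filter. Of 23 other basement membrane genes, 4 were tested with CL097, of which Agrn (agrin) rose by 2.19 and Col18a1 by 2.13, and Lamc1, the laminin gamma-1 chain to which nidogen binds, fell by 1.01. With CpG, 9 were tested, and Lamc1 fell (-3.0 in Tlr9+/- and -2.80 in Tlr997) while Agrn rose (2.15 and 2.57). Nid2, the paralog of Nid1, had a mean of -0.85 log2 CPM in unstimulated Tlr779 cells and -3.30 with CL097 and was not tested. Of 26 other intermediate filament genes, 4 were tested with CL097, none of them a keratin: Lmna (1.61), Lmnb2 (1.26) and Lmnb1 (0.67) of the nuclear lamina rose and Vim (vimentin) fell by 1.81. Of 20 genes known to respond to TLRs, 16 rose with CL097, 16 rose and 1 fell with CpG in each genotype, and 3 were lower in Tlr997 with CpG. Over all genes tested, 22.7% rose and 23.6% fell with CL097. With CpG, 29.7% rose and 28.2% fell in Tlr9+/-, and 29.6% rose and 26% fell in Tlr997. Between genotypes with CpG, 1.47% were lower in Tlr997.

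**Figure D4:**
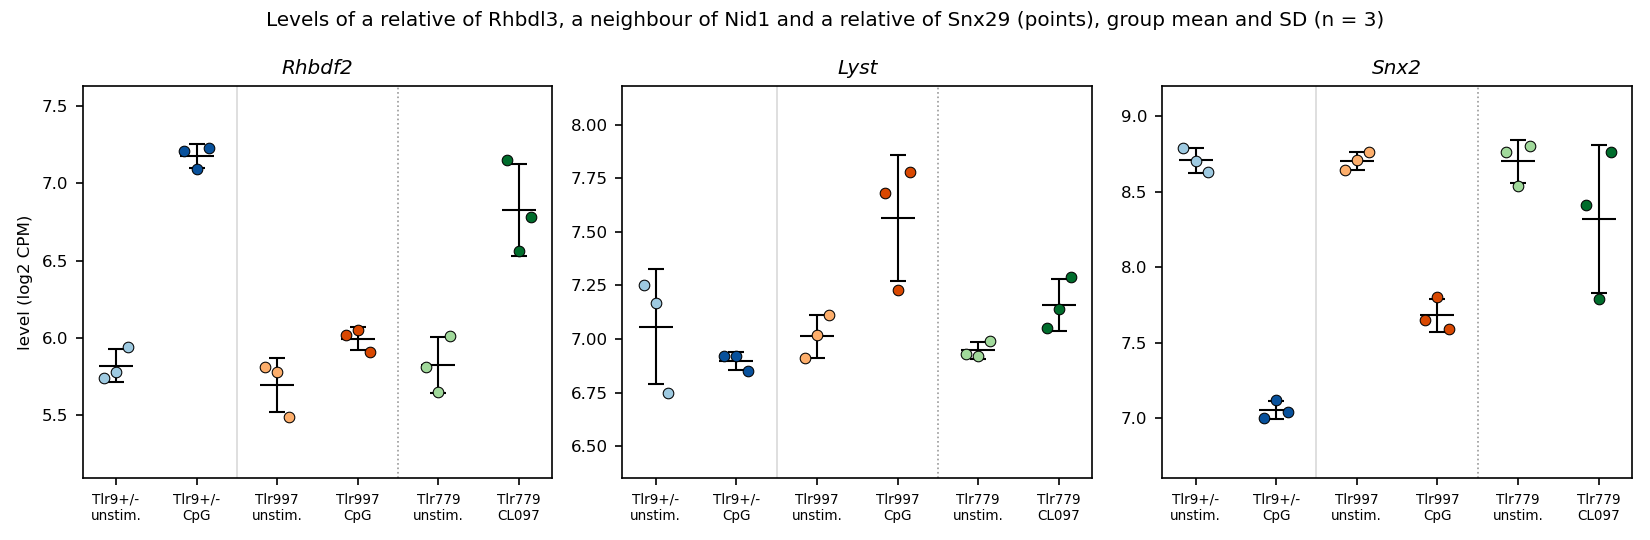
Level in log2 CPM (y axis, a separate range in each panel) of Rhbdf2, Lyst and Snx2 in the 6 groups (x axis), with points for libraries, a mark for the mean and bars for the SD. With CpG, Rhbdf2 is at 7.09 to 7.23 in Tlr9+/- and 5.91 to 6.05 in Tlr997, while Lyst and Snx2 are higher in Tlr997.

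The genes most like each of the 6 were found by Pearson's r over the 12 libraries of the Tlr7-/- arm, which contain the same 4 groups, so that r largely follows the group means. For Rhbdl3 they were Ccl4 (r = 0.997), which encodes the chemokine MIP-1β, Bag5 (0.996) and Dbr1 (0.995). For 1110032F04Rik they were Wdr12 (0.999), Cct6a (0.998) and Nop58 (0.998), of which Wdr12 and Nop58 act in ribosome biogenesis. For Krt222 they were Ccdc85c (0.994), C030006K11Rik and E030011O05Rik, and for Smagp Etv3 (0.985), Sh3gl1 and Pdlim1. The r of Krt222 includes the unstimulated Tlr997 library at -4.62 log2 CPM and was not computed without it. For Nid1 they were Cbx5 (0.982), which encodes the heterochromatin protein HP1α, Rfc3 and Olfr56, and for Snx29 Gnai2 (0.984), Pmel and Zfp608. In the 6 Tlr779 libraries, over which likeness was not ranked, r was 0.98 for Rhbdl3 with Ccl4 and 0.99 for 1110032F04Rik with Wdr12. For Krt222 with Ccdc85c, C030006K11Rik and E030011O05Rik it was 0.96, 0.84 and 0.70. For Nid1 with Cbx5 it was 0.68, and over all pairs named here it ran from 0.68 to 1. These libraries hold only 2 groups, so r there also largely follows the group means, and the values are a description.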

How the data were processed

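RNA-seq was performed by the study on spleen B cells of MRL/lpr mice, enriched with beads and cultured for 4 h. The authors prepared stranded mRNA libraries, aligned reads to mm10 with STAR 2.6.1a and counted genes with featureCounts (Subread 2.0.1), after FastQC 0.11.7 and Trim Galore 0.6.5, by the submitters' processing notes. The values deposited by the authors are log2 CPM after quantile normalization and voom, in 1 file per sample with no counts. Whether counting used strand is not given in the sources used here.

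Without counts the depth per library is unknown, and no counting interval is given. The most frequent low value, -5.05, stands for 0 counts, and by voom's formula 1 count would lie at -3.47 and 3 counts at -2.24 on average. Low genes in the Tlr7-/- arm carried values that differed only by replicate number: of 6614 genes under -4 in all 12 libraries, 6306 had 1 value per number, and for 822 of these the values differed between numbers. The count was made in this arm only, but the Tlr779 groups held such values too. Lama2, for example, had -5.47, -4.85 and -4.83 both in Tlr997 with CpG and in unstimulated Tlr779 cells. An offset per replicate number had thus been removed before deposit, and its effect on p-values was not tested in either arm.

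Differences were fitted with limma 3.58.1 in R 4.3.3 to the log2 values, letting the prior variance follow the mean level and adding no pseudocount, over genes with at least 3 fitted libraries over 0 log2 CPM. Differences contain voom's offset of 0.5 counts and understate changes of low genes. The first arm was fitted on its 12 libraries and the CL097 response on the 6 Tlr779 libraries. A gene was called at a Benjamini-Hochberg adjusted p under 0.05 over all genes tested and a log2 difference over 0.5 in size, as in the study. The fits were tested on simulated data first. The labels do not say that a replicate number marks a mouse. Deviations from group means correlated between samples of the same number at 0.51, 0.29 and 0.51 in Tlr9+/- and at 0.25, 0.49 and 0.33 in Tlr779, which met the criterion for pairing (over 0.1 for every number), and at 0.37, 0.08 and 0.02 in Tlr997, which did not. The reported fits have no block, and a block was an alternative. P-values measure the spread between these libraries.

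The 6 genes and all gene lists were chosen with earlier results of these data known. The 6 were picked for a change with an agonist or between genotypes, over all 18 files, so their comparisons carry no p-value. A test of their CL097 response had been planned and was replaced by this description. Besides the 6, the text names the nearest 2 listed genes on each side, the receptors, the 3 genes with the highest r, and up to 4 called genes per list and comparison, and, chosen after their values were seen, Nid2, Krt24, Krt25 and Tnfrsf17 below the filter. Gene positions are from RefSeq (GRCm38), where 21571 of 23420 symbols matched directly and 23223 with older symbols. Further marker lists (NK cell, macrophage, neutrophil, erythroid, platelet and plasma cell) were summed as checks of purity. In unstimulated and stimulated groups the highest sums were 11.2 CPM for 5 NK cell markers, 501 for 9 macrophage, 173 for 6 neutrophil, 500 for 6 erythroid, 8.18 for 5 platelet and 2630 for 5 plasma cell genes, of which B cells also express several. The alternatives were no filter, a filter at 1 log2 CPM, no trend, a replicate block, a fold threshold of 1, array quality weights, all 18 libraries in 1 model, leaving out each library, group medians and means of CPM. For single genes other than the 6, the 18 settings left out the fold threshold of 1, the group medians and the means of CPM.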

Additional observations from a re-analysis of the deposited data

Results flagged for a closer look

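Of the genes described, 10 had CpG responses that differed between genotypes, the response in Tlr997 minus that in Tlr9+/-, past the thresholds of the limma interaction. Over all 11494 genes tested, 1.55% were called in it. By list, those called were 1 of 6 tested rhomboid-family genes, 1 of 26 sorting nexins, 3 of 20 TLR response genes and 2 of 9 B cell markers. None of the 16 tested neighbours and no tested gene of the other lists was called. Rhbdl3 (-2.71), Smagp (-1.66) and Nid1 (1.24) were picked with this comparison known, so these values are a description without a test. Among relatives, Rhbdf2 (-1.06, adjusted p = 0.0011) and Snx2 (0.63, adjusted p = 0.004) were called, the first in all 18 alternative settings and the second in 17, with the call lost when all 18 libraries shared 1 model (highest adjusted p = 0.18). A fold threshold of 1 was not among these settings, and the Snx2 difference lies under it. Among TLR response genes, Ccl4 (-0.94, adjusted p = 0.012), Tnf (-0.62, adjusted p = 0.035) and Tnfaip3 (-0.62, adjusted p = 0.0022), which encodes the NF-κB inhibitor A20, responded less in Tlr997. Among B cell markers, Ms4a1 (1.16, adjusted p = 3.8e-05) and Cd79b (1.14, adjusted p = 0.021) differed in the other direction. The 3 libraries of a group are too few for a check of single outlying libraries.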

How the results depend on the processing

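Among the 6 genes, 624 recomputed values in the Tlr7-/- arm moved by less than the spread between libraries. The other 6 values were those of Krt222 with array weights (3.75 for the CpG response in Tlr997, -0.79 for the unstimulated genotype difference and 0.38 for the difference of responses) or without replicate 3 of unstimulated Tlr997 cells, given above. Because the genes were picked for their changes, the tally of CL097 calls that follows describes them and supports nothing. With CL097, the 6 genes were past the thresholds in 68 of the 72 settings whose fit tested them. The other 4 were all of Nid1: no filter, a fold threshold of 1, and leaving out replicate 2 of either Tlr779 group. Rhbdl3 and 1110032F04Rik were tested in 10 settings instead of 13, since leaving out a CL097 library takes them under the filter. No CL097 difference of the 6 genes changed sign. In the Tlr7-/- arm, some small differences changed sign when 1 library was left out. For 1110032F04Rik the difference of CpG responses ran from -0.22 to 0.33 and the unstimulated genotype difference from -0.07 to 0.47. The unstimulated genotype difference of Nid1 ran from -0.34 to 0.05.

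Counts over all genes were 5133 (CL097), 6649 (CpG in Tlr9+/-), 6387 (CpG in Tlr997), 313 (genotypes with CpG), 2 (genotypes unstimulated) and 178 (difference of responses). A fold threshold of 1 gave 2581, 4059, 3768, 74 and, for the difference of responses, 46. Without a filter, 187, 0 and 78 were called in the last 3 comparisons. Array weights gave 485 between genotypes with CpG and 377 in the difference of responses, and no trend gave 98 in the latter. A replicate block raised the difference of responses to 328 genes, of which 176 were also called without it. It moved no other count by over 1.5 times and did not change the CL097 differences of the 6 genes, which a balanced block leaves as they are. Leaving out 1 library gave 4700 to 5088 with CL097, 6416 to 6866 with CpG in Tlr9+/-, 6178 to 6473 with CpG in Tlr997, 187 (without replicate 1 of Tlr9+/- with CpG) to 410 between genotypes with CpG, 2 to 4 (without replicate 2 or 3 of unstimulated Tlr997) between unstimulated genotypes, and 87 (without replicate 1 of unstimulated Tlr9+/-) to 295 (without replicate 3 of unstimulated Tlr997) in the difference of responses. In the latter, leaving out replicate 1, 2 or 3 of Tlr9+/- with CpG gave 101, 101 and 90. The cause of these moves was not tested, apart from fewer libraries or another threshold by construction. Depth limits what can be said of levels under -2.24 log2 CPM, the level of 3 counts, which includes 1 library of Rhbdl3 and 1 of Krt222.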
